A study of Homo sapiens with 3 samples.

Results

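The 32 genes described here are interferon-stimulated genes, which many cell types switch on when they meet type I interferon. They were chosen by symbol, as a list of known interferon targets, and all 32 were found among the 55773 gene symbols measured. The list was drawn up with earlier results of these data known, so that it is not independent evidence. RNA was sequenced from 3 lines made from HaCaT, human skin keratinocytes that became immortal spontaneously in culture. Every line carried HRAS G12V, an oncogenic form of HRAS, so that the control line is itself RAS-transformed. On that background, one line expressed THG-1 S264A, in which a serine of THG-1 is replaced by alanine, one expressed wild-type THG-1, and one carried the empty vector. THG-1 is the protein encoded by TSC22D4, and the S264A line was set against both the wild-type and the empty-vector line. Each line was 1 library, and the sources used here do not say whether a line was a clone or a pool. No p-value can therefore be given, and a difference between lines and a difference between cultures cannot be told apart.

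Type I interferons bind the receptor IFNAR1-IFNAR2, whose kinases JAK1 and TYK2 phosphorylate STAT proteins, STAT2 among them. STAT2 and IRF9 are subunits of the complex ISGF3, which binds the interferon-stimulated response element (ISRE) before its target genes. The targets include sensors of viral RNA such as RIG-I and MDA5, the factors STAT2, IRF9 and IRF7 themselves, and effectors that degrade viral RNA, block translation or hinder membrane fusion. Keratinocytes respond to type I interferon and make an interferon of their own, IFN-kappa.

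Depth, inferred from the steps of the expression values, was 14022885 reads for S264A, 12733479 for wild-type THG-1 and 32055052 for the empty vector. These are the totals by which the values were scaled, and the numbers of reads sequenced may differ. By this measure the empty-vector library had 2.52 times the reads of the wild-type library. Expression is given as RPKM, read counts corrected for gene length and for library depth. TSC22D4 stood at 51.1 RPKM in S264A, 64.9 in wild-type THG-1 and 7.98 in the empty-vector library, so that both lines labelled as expressing THG-1 stood above the control. These values do not tell the S264A form from the wild-type form. The S264A level was 0.787 of the wild-type level, and whether this difference bears on other genes was not tested. All 6 keratinocyte markers were above 1 RPKM in every library, and their summed level was 1209, 1163 and 821 RPKM in S264A, wild-type THG-1 and empty vector. The markers did not all follow this sum: KRT14 stood at 382, 287 and 119 RPKM and KRT5 at 329, 240 and 367 RPKM. Of 7 immune, 5 fibroblast, 4 melanocyte and 3 endothelial markers in the table, none reached 1 RPKM in any library. The summed immune markers were at 0.415, 0.269 and 0.262 RPKM in the same order, and the plasmacytoid dendritic cell markers CLEC4C and LILRA4 were at 0 in all 3.

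The interferon-stimulated genes stood highest in the line with wild-type THG-1. Their summed level was 318 RPKM in S264A, 573 in wild-type THG-1 and 321 in empty vector, and the median gene stood at 5.34, 7.99 and 4.04 RPKM. Among these genes, 27 had their highest value in the wild-type line, 4 in the empty-vector line (DDX58, OASL, HERC6 and IFI44) and 1 in the S264A line (HERC5). The lowest value fell in the empty-vector line for 17 genes, in S264A for 11 and in the wild-type line for 4. In these bulk libraries, fewer responding cells and less RNA per cell cannot be told apart.

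**Figure D1:**
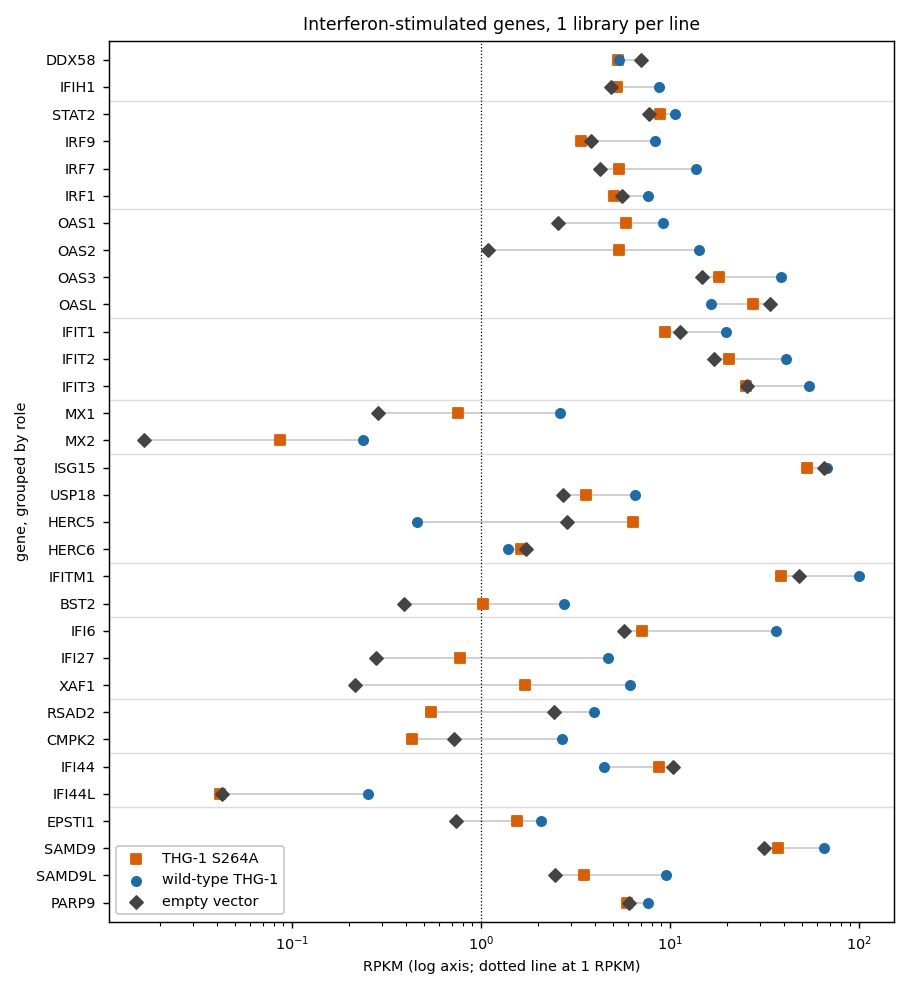
RPKM (log axis) of each of the 32 interferon-stimulated genes in the S264A, wild-type THG-1 and empty-vector libraries, grouped by role, with 1 point per library. The wild-type point is the highest for 27 genes, and HERC5 is the gene whose highest point is S264A.

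Differences were measured as log2((RPKM + 1)/(RPKM + 1)), which damps low genes, and a gene was counted as higher or lower where that fold was at least 2. The background was made up of genes that reached 1 RPKM in either library of a pair. Between wild-type THG-1 and empty vector, 16 of the 32 genes were at least 2-fold higher and 2 (HERC5 and IFI44) at least 2-fold lower, against 4.53% higher and 1.54% lower of 11993 genes compared. The median log2 difference of the 32 genes was 0.99, and that of all genes compared was -0.01. Between S264A and wild-type THG-1, 13 were at least 2-fold lower and 1 (HERC5) higher, against 2.23% lower and 1.55% higher of 12069 genes. The median was -0.84 for the 32 genes and 0.02 for all genes.

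Between S264A and empty vector, OAS2 and XAF1 were at least 2-fold higher and RSAD2 at least 2-fold lower, and 29 genes were neither. Among the 29, MX1, MX2, IFI27, CMPK2 and IFI44L were below 1 RPKM in both libraries, so that the background rule would leave them out. MX2 and IFI44L were below 1 RPKM in every library and would be left out in all 3 comparisons. The background was 2.99% higher and 0.824% lower of 12010 genes, and the medians were 0.13 for the 32 genes and 0.02 for all. The 3 comparisons share their libraries in pairs, so that the value of 1 library enters 2 of them. Scaling the libraries to equal summed RPKM moved the median of all genes to -0.13 for wild type against empty vector and to 0.11 for S264A against wild type. Under that scaling 12 of the 32 genes were higher and 3 lower between wild-type THG-1 and empty vector, and 1 higher and 9 lower between S264A and wild-type THG-1. The calls of all genes between wild type and empty vector, 543 higher and 185 lower as deposited, became 434 higher and 255 lower. Between S264A and wild type, where 187 of all genes were higher and 269 lower as deposited, the lower calls ceased to outnumber the higher ones (222 higher and 215 lower).

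**Figure D2:**
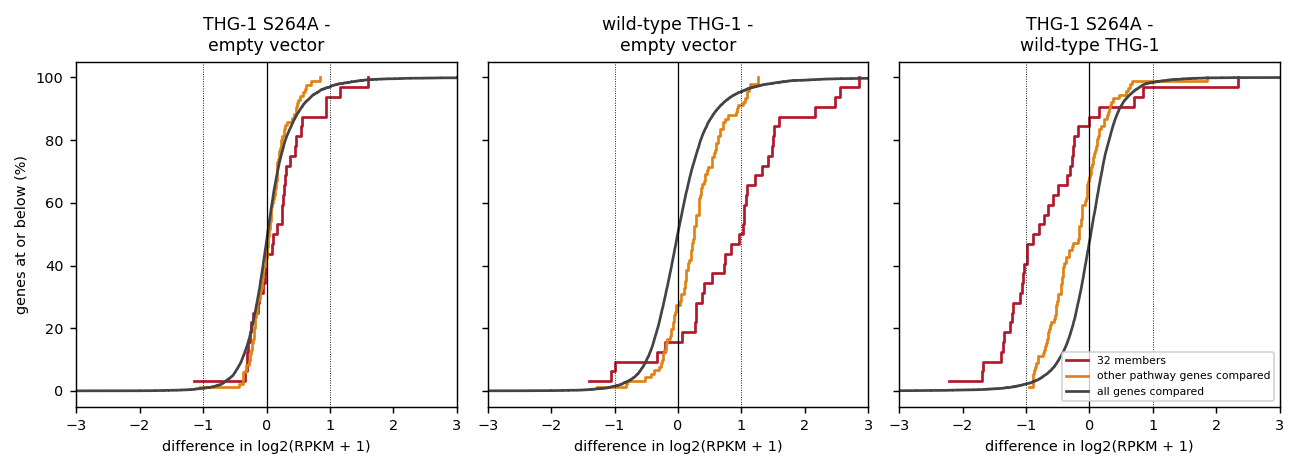
Cumulative share (%) of genes by difference in log2(RPKM + 1) for the 3 comparisons: the 32 interferon-stimulated genes, other genes of the interferon pathway that could be compared, and all genes compared. Over most of its range, outside the lowest tail, the curve of the 32 genes lies right of that of all genes for wild-type THG-1 minus empty vector (medians 0.99 and -0.01) and, outside the highest tail, left of it for S264A minus wild type (medians -0.84 and 0.02).

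The whole reads behind each RPKM value could be recovered for all 32 genes, which gives each plain ratio of RPKM a 95% interval for counting error only. Between wild-type THG-1 and empty vector the interval lay above 1 for 26 genes, below 1 for 5 (DDX58, OASL, HERC5, HERC6 and IFI44) and held 1 for ISG15. Between S264A and wild-type THG-1 it lay below 1 for 27 genes, above 1 for OASL, HERC5 and IFI44, and held 1 for DDX58 and HERC6. Between S264A and empty vector it lay above 1 for 16 genes, below 1 for 8, and held 1 for the other 8. Depth therefore did not limit most of these differences, while the spread between cultures is not known.

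**Figure D3:**
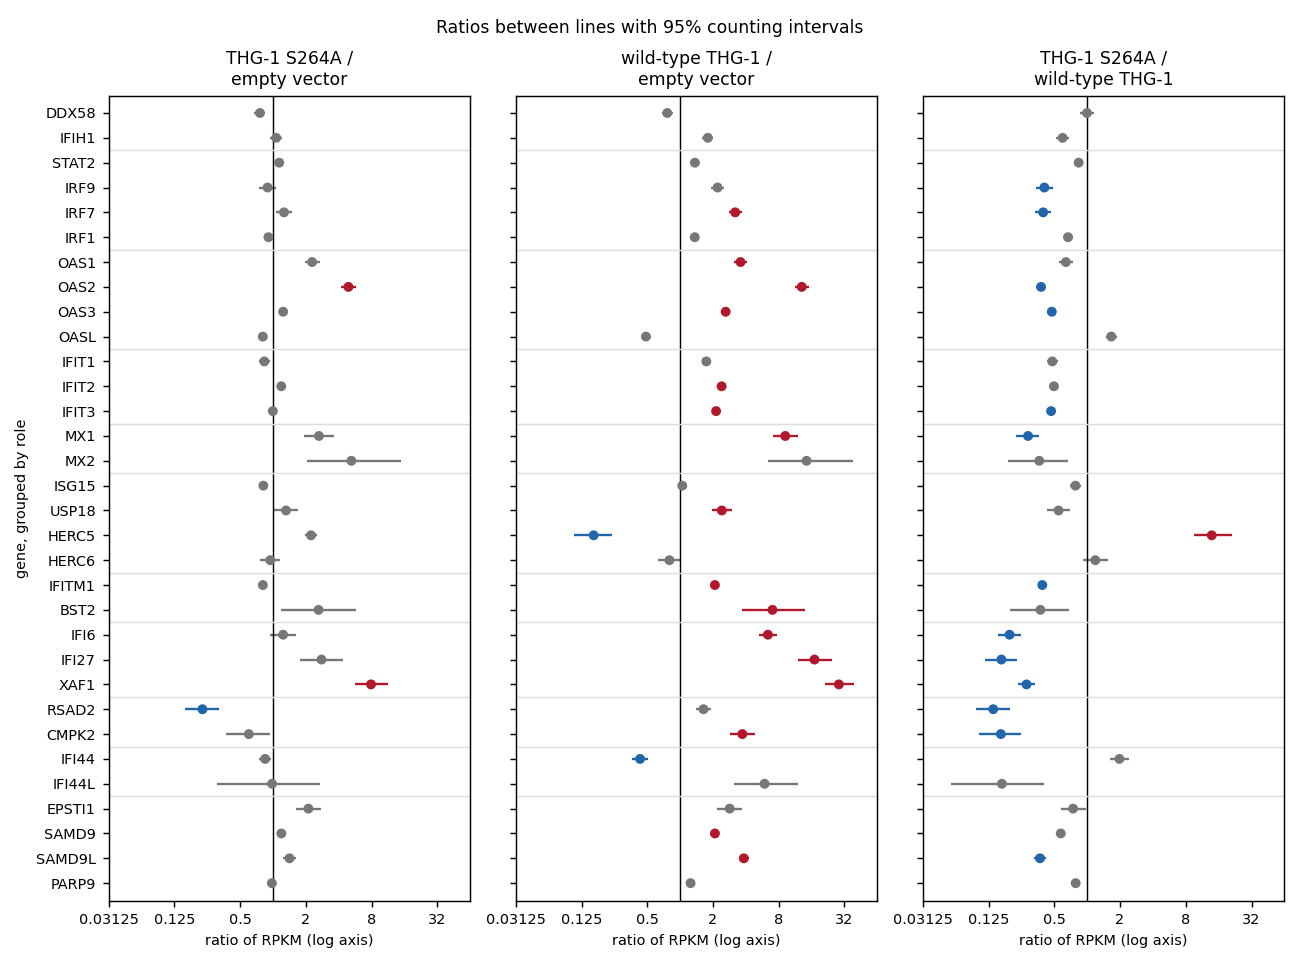
Plain RPKM ratio (log axis) of each of the 32 genes in the 3 comparisons, with exact 95% intervals for counting error. Red marks genes at least 2-fold higher and blue genes at least 2-fold lower on the log2(RPKM + 1) scale, and grey the others. XAF1 has the highest ratio of wild-type THG-1 to empty vector (28.5), and HERC5 the highest ratio of S264A to wild type (13.8).

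For 6 genes the stretch of promoter just before the start of transcription is shown. XAF1, IFI6 and IFI27 have the largest log2 differences between wild-type THG-1 and empty vector among the genes with a window, ISG15 is the most abundant in the S264A and empty-vector lines, and HERC5 and IFI44 went against the group. Each run is the 180 bases before the start, read 5′ to 3′ on the strand of the gene from RefSeq (GRCh38.p14), with cores of the ISRE (TTTC, any 2 bases and TTTC again, on either strand) in capitals. The positions are chr1:27672193-27672372 on the minus strand for IFI6, and, on the plus strand, chr17:6755267-6755446 for XAF1, chr14:94110556-94110735 for IFI27, chr1:1013317-1013496 for ISG15, chr4:88456939-88457118 for HERC5 and chr1:78649609-78649788 for IFI44. Where RefSeq gives several starts, the window of lowest coordinate is shown, and capitals longer than 1 core mark cores that overlap.
XAF1: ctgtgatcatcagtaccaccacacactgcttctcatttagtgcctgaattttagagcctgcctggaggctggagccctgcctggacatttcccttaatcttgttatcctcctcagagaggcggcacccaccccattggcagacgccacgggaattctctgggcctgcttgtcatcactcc
IFI6: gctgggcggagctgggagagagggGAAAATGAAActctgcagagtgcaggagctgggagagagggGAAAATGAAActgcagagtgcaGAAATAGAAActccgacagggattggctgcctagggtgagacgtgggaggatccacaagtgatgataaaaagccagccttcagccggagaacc
IFI27: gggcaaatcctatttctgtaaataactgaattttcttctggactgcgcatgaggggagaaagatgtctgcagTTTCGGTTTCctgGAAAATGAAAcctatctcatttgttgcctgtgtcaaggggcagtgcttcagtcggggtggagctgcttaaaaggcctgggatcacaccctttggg
ISG15: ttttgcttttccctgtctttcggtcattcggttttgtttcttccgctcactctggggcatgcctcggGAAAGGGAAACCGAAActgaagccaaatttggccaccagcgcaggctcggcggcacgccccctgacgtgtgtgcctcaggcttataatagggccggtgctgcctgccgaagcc
HERC5: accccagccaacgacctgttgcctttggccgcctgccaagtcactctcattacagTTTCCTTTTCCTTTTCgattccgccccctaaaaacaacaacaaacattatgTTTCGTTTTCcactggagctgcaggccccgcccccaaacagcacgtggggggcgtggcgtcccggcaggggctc
IFI44: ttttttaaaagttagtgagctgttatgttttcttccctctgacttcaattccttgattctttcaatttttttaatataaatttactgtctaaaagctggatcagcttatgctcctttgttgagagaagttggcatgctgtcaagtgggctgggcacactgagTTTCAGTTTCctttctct

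In these stretches IFI6 and HERC5 hold 3 ISRE cores each, IFI27 and ISG15 hold 2, IFI44 holds 1 and XAF1 holds 0. The 3 cores of HERC5 begin 125, 119 and 74 bases before the start, and those of IFI6 156, 115 and 93 bases before it. In windows of 250 bases before to 50 after the start, 17 of the 26 genes with a window held at least 1 ISRE core, against 3.57% of 35116 windows and 4.38% of 27305 genes. Because the genes were chosen as known interferon targets, this higher share may follow from the choice and is not a result about these lines. No core was found for CMPK2, DDX58, HERC6, IRF1, IRF9, OAS1, SAMD9L, STAT2 or XAF1. The interferon gamma-activated element TTCNNNGAA (GAS) stood in the windows of 8 of the 26 genes, against 9.38% of genes. A kB site, the element of NF-kB, stood in those of 7, against 13.3% of genes. ISRE, GAS and kB matches may overlap one another, and both strands were searched. IRF7, OAS2, OASL, IFIT2, MX2 and USP18 had no window. A match describes letters in a window and not binding, and the lack of a match does not show that a gene lacks the element.

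The sensors of viral RNA were not among the genes called in any comparison. DDX58, which encodes RIG-I, stood at 5.34 RPKM in S264A, 5.37 in wild-type THG-1 and 7.04 in empty vector. Both THG-1 lines lay below the empty-vector line, with ratios of 0.758 (0.674 to 0.851) for S264A and 0.762 (0.675 to 0.859) for wild type. IFIH1, which encodes MDA5, stood at 5.23, 8.79 and 4.90 RPKM in S264A, wild-type THG-1 and empty vector. It followed the majority, with wild type at 1.80 times the empty vector (1.60 to 2.01) and S264A at 1.07 times (0.934 to 1.22).

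Of the 4 STAT and IRF factors, IRF7 alone was called higher in wild-type THG-1 than in empty vector on the log2(RPKM + 1) scale. IRF7, which drives the amplification of interferon production, stood at 5.40 RPKM in S264A, 13.7 in wild-type THG-1 and 4.29 in empty vector, a wild-type level 3.19 times the empty vector (2.78 to 3.68). IRF9, the DNA-binding subunit of ISGF3, stood at 3.38, 8.36 and 3.80 RPKM, and its wild-type level was 2.20 times the empty vector (1.92 to 2.52). On the damped scale its log2 difference of 0.96 was just under the call, and it was called with a pseudocount of 0.1. IRF9 and IRF7 were both at least 2-fold lower in S264A than in wild type, at 0.405 (0.337 to 0.483) and 0.395 (0.332 to 0.467) of its level. Under equal summed RPKM the call on IRF9 was lost. In the annotation at hand IRF9 shares 48.4% of its exon length with another gene model on the same strand, so that its reads could belong to either.

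STAT2, a subunit of ISGF3, stood at 8.84 RPKM in S264A, 10.6 in wild-type THG-1 and 7.76 in empty vector. Its wild-type ratio to the empty vector was 1.37 (1.25 to 1.49). IRF1, a factor induced by interferon gamma in particular, stood at 5.08, 7.62 and 5.60 RPKM, with a wild-type ratio of 1.36 (1.24 to 1.49). Both genes were highest in the wild-type line by margins under 2-fold.

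The 2-5A synthetases, which make the messenger that activates RNase L, included the gene with the largest log2 difference between wild type and empty vector among the 32, OAS2. It stood at 5.35 RPKM in S264A, 14.2 in wild-type THG-1 and 1.09 in empty vector, from 470, 1131 and 219 reads. The wild-type level was 13.0 times the empty vector (11.2 to 15.1), and the S264A level 4.91 times (4.17 to 5.79). OAS2 was thus at least 2-fold apart in every pair of lines, with S264A in between, and ranked 37 from the highest among the 11993 genes compared between wild type and empty vector. OAS1 kept the same order at 5.84, 9.16 and 2.56 RPKM, with S264A at 2.28 times the empty vector (1.95 to 2.67), a log2 difference of 0.94. OAS3, the most abundant of these 3 synthetases, stood at 18.2, 38.5 and 14.7 RPKM, so that S264A lay near the empty vector (ratio 1.24, 1.17 to 1.31) and at 0.473 of the wild-type level (0.449 to 0.499). OAS1, OAS3 and OAS2 lie side by side on chromosome 12 in RefSeq.

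OASL, which encodes a relative of the synthetases without synthetase activity, ran the other way. It stood at 27.4 RPKM in S264A, 16.5 in wild-type THG-1 and 34.0 in empty vector. The wild-type ratio to the empty vector was 0.486 (0.440 to 0.535), and the log2 difference of -0.998 fell just short of the call. OASL was called lower in the quantile-normalised columns, under upper-quartile scaling and under equal sums. It was the most abundant of the genes with their lowest level in the wild-type line.

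IFIT1, IFIT2 and IFIT3 encode proteins that bind foreign RNA and block its translation, and all 3 were highest in the wild-type line. IFIT3 stood at 25.3 RPKM in S264A, 54.3 in wild-type THG-1 and 25.4 in empty vector, with wild type at 2.13 times the empty vector (2.00 to 2.27). IFIT2 stood at 20.4, 41.2 and 17.2 RPKM, with a wild-type ratio of 2.40 (2.25 to 2.56). IFIT1 stood at 9.43, 19.7 and 11.3 RPKM, and its wild-type ratio of 1.74 (1.58 to 1.91) was under the call. For IFIT3 the levels of S264A and empty vector were indistinguishable by counting error (ratio 0.996, 0.921 to 1.08). Its calls of wild type against empty vector and of S264A against wild type were both lost in the quantile-normalised columns and under equal sums, as was the call of OAS3 in S264A against wild type. The neighbouring IFIT5, mentioned here for its place beside IFIT1, stood at 6.09, 8.70 and 5.39 RPKM.

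The MX GTPases trap viral nucleocapsids and were at low levels. MX1 stood at 0.754 RPKM in S264A, 2.63 in wild-type THG-1 and 0.286 in empty vector, from 91, 288 and 79 reads. The wild-type level was 9.18 times the empty vector (7.13 to 11.9) and the S264A level 2.63 times (1.93 to 3.61), while the damped log2 difference of S264A was 0.45. The call of MX1 in S264A against wild type was lost under equal sums. MX2 did not reach 1 RPKM in any library and stood at 0.0866, 0.238 and 0.0166 RPKM, from 16, 40 and 7 reads. Its order of the 3 lines was that of MX1.

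ISG15, a ubiquitin-like protein attached to other proteins, was abundant and hardly differed between wild-type THG-1 and empty vector. It stood at 53.0 RPKM in S264A, 67.9 in wild-type THG-1 and 65.0 in empty vector, and the wild-type ratio to the empty vector was 1.05 (0.950 to 1.15). The small log2 difference of 0.06 turned to -0.15 in the quantile-normalised columns and to -0.09 under equal sums. S264A lay below both other lines, at 0.815 of the empty vector (0.736 to 0.901) and 0.780 of wild type (0.693 to 0.877). USP18, which removes ISG15 and also damps signalling at the receptor, stood at 3.58, 6.57 and 2.73 RPKM. USP18 was 2.41 times as high in wild type as in empty vector (1.95 to 2.97), a call that was lost under upper-quartile and equal-sum scaling. Reads of USP18 can be shared with its close copy USP41.

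HERC5, the main ligase that attaches ISG15 in human cells, had the pattern most opposed to the group. It stood at 6.37 RPKM in S264A, 0.461 in wild-type THG-1 and 2.86 in empty vector, from 426, 28 and 437 reads. The S264A level was 13.8 times the wild-type level (9.42 to 21.0) and 2.23 times the empty vector (1.95 to 2.55), and the wild-type level was 0.161 of the empty vector (0.106 to 0.236). HERC5 ranked 5 from the highest of 12069 genes between S264A and wild type, and 48 from the lowest of 11993 between wild type and empty vector. HERC6, the gene beside it, stood at 1.64, 1.38 and 1.73 RPKM. HERC6 had ratios of 0.944 (0.766 to 1.16) for S264A and 0.797 (0.632 to 0.999) for wild type against empty vector, so that it did not share the wide differences of HERC5. Thus the genes of ISG15 and of its ligase did not follow each other in these lines.

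Of the membrane restriction factors, IFITM1, which blocks viral fusion, stood at 38.6 RPKM in S264A, 99.7 in wild-type THG-1 and 47.9 in empty vector. The wild-type level was 2.08 times the empty vector (1.94 to 2.24), while S264A lay below the empty vector at 0.807 (0.733 to 0.887). IFITM1 was the most abundant of the 32 genes in the wild-type line. Its neighbours IFITM2 (22.5, 30.3 and 29.3 RPKM) and IFITM3 (79.6, 122 and 100.2 RPKM) are close copies that can share reads with it, and IFITM2 covers 32.5% of its exon length in the annotation at hand. The call of IFITM1 between wild type and empty vector was lost in the quantile-normalised columns and under upper-quartile and equal-sum scaling. BST2, the tether that holds virions at the cell surface, stood at 1.02, 2.74 and 0.390 RPKM, from 16, 39 and 14 reads. The wild-type ratio to the empty vector was 7.01 with a wide interval (3.72 to 14.0).

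On the log2(RPKM + 1) scale, IFI6, IFI27 and XAF1 had, after OAS2, the largest differences between wild type and empty vector among the 32 genes, although the plain ratios of MX1, MX2 and BST2, all low genes, exceed that of IFI6. IFI6, IFI27 and XAF1 were all at least 2-fold lower in S264A than in wild type. XAF1, which encodes a pro-apoptotic partner of XIAP, stood at 1.70 RPKM in S264A, 6.12 in wild-type THG-1 and 0.215 in empty vector, from 159, 520 and 46 reads. XAF1 was 28.5 times as high in wild type as in empty vector (21.0 to 39.4) and 7.90 times as high in S264A (5.66 to 11.2). In the annotation at hand, a noncoding RNA on the other strand covers 38.3% of its exon length, and the sources used here do not say whether counting used strand. IFI27, a small mitochondrial protein widely used as an interferon marker, stood at 0.772, 4.72 and 0.278 RPKM, with wild type at 17.0 times the empty vector (12.0 to 24.7) and S264A at 2.78 times (1.76 to 4.42).

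IFI6, an anti-apoptotic protein of the same family, differed in another way. It stood at 7.09 RPKM in S264A, 36.5 in wild-type THG-1 and 5.73 in empty vector. The wild-type level was 6.36 times the empty vector (5.28 to 7.70), whereas the interval of S264A against empty vector held 1 (ratio 1.24, 0.940 to 1.62). IFI6 ranked 25 from the lowest of 12069 genes between S264A and wild type. So XAF1 and OAS2 stood well above the empty vector in S264A, and IFI6 did not.

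RSAD2 encodes viperin, which makes a chain-terminating nucleotide, and the gene beside it, CMPK2, encodes a mitochondrial nucleotide kinase. RSAD2 stood at 0.546 RPKM in S264A, 3.96 in wild-type THG-1 and 2.42 in empty vector, from 37, 244 and 375 reads. It was lower in S264A than in both other lines, at 0.226 of the empty vector (0.156 to 0.317) and 0.138 of wild type (0.0947 to 0.195). CMPK2 stood at 0.432, 2.67 and 0.720 RPKM, from 26, 146 and 99 reads. CMPK2 was 3.71 times as high in wild type as in empty vector (2.86 to 4.84), while S264A stood at 0.600 of the empty vector (0.374 to 0.932). The next gene, RNF144A, stood at 0.242, 1.77 and 1.03 RPKM, with the same order of the 3 lines.

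IFI44, an interferon-induced cytoplasmic protein, went against the group. It stood at 8.78 RPKM in S264A, 4.46 in wild-type THG-1 and 10.4 in empty vector, from 345, 159 and 932 reads. The wild-type level was 0.429 of the empty vector (0.361 to 0.509), and the S264A level was 0.846 of it (0.746 to 0.958) and 1.97 times the wild type (1.63 to 2.39). The neighbouring paralog IFI44L stood far lower, at 0.0418, 0.253 and 0.0427 RPKM from 6, 33 and 14 reads. Although below 1 RPKM, IFI44L had the order of the majority, with wild type at 5.93 times the empty vector (3.09 to 12.0), so that the paralogs at this locus ran in opposite directions.

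**Figure D4:**
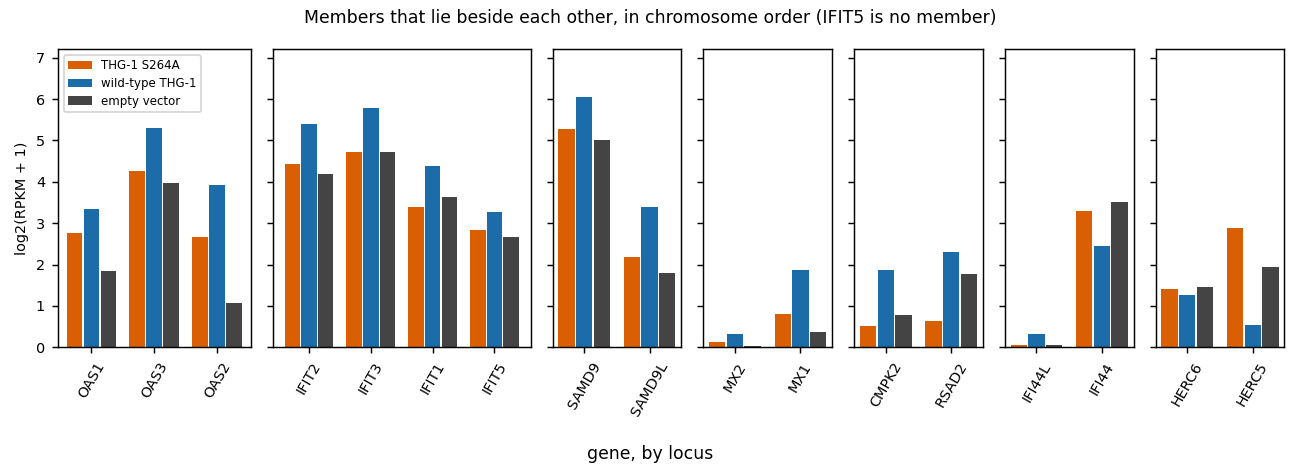
Bars of log2(RPKM + 1) in the S264A, wild-type THG-1 and empty-vector libraries for neighbouring interferon-stimulated genes, with the genes of each locus in their RefSeq order. Genes far below 1 RPKM lie near 0 on this scale. IFI44 and IFI44L differ in direction at their shared locus, and HERC5 stands at 0.461 RPKM in wild-type THG-1 where HERC6 stands at 1.38.

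Among the other effectors, SAMD9 and SAMD9L, paralogs that restrict poxviruses, lie side by side and were called in the same direction. SAMD9 stood at 37.4 RPKM in S264A, 65.4 in wild-type THG-1 and 31.4 in empty vector, with a wild-type ratio of 2.08 (2.01 to 2.16). SAMD9L stood at 3.51, 9.50 and 2.48 RPKM, with a wild-type ratio of 3.83 (3.44 to 4.27). The call on SAMD9, just inside the threshold, was lost in the quantile-normalised columns and under both other scalings. EPSTI1 stood at 1.55, 2.09 and 0.735 RPKM, and S264A and wild type were 2.11 (1.61 to 2.77) and 2.84 (2.20 to 3.68) times the empty vector. PARP9, which acts with DTX3L in interferon signalling, stood at 5.96, 7.61 and 6.11 RPKM, with a wild-type ratio of 1.25 (1.15 to 1.35). PARP9 and ISG15 were among the genes with the smallest wild-type differences.

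Against a background of 4.53% higher and 1.54% lower among all genes, each role holds too few genes for its share to be read closely. Sensors had 0 of 2 genes at least 2-fold higher in wild type than in empty vector and the STAT and IRF factors 1 of 4. The 2-5A synthetase family had 3 of 4, the IFIT family 2 of 3, the MX GTPases 1 of 2, the ISG15 system 1 of 4, the membrane factors 2 of 2, and IFI6, IFI27 and XAF1 3 of 3. The viperin locus had 1 of 2, the IFI44 family 0 of 2, and the remaining effectors 2 of 4. The 2 genes called lower were HERC5 and IFI44. Of these 18 called genes, 6 (MX1, HERC5, BST2, IFI27, XAF1 and CMPK2) stood below 1 RPKM in 1 of the 2 libraries, so that their fold depends on the added 1 RPKM. The same held for 2 of the 3 genes called between S264A and empty vector (XAF1 and RSAD2) and for 5 of the 14 called between S264A and wild type (MX1, HERC5, IFI27, RSAD2 and CMPK2).

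The interferons themselves were at or near the limit of detection. Of 22 ligand genes in the table only IFNE, an epithelial interferon, reached 1 RPKM. IFNE stood at 1.65 RPKM in S264A, 0.694 in wild-type THG-1 and 1.99 in empty vector, from 34, 13 and 94 reads. It was thus lowest, on few reads, in the line where the interferon-stimulated genes were highest. IFNB1 was listed at 0 in all 3 libraries. IFNK, the keratinocyte interferon, stood at 0.125, 0.276 and 0.328 RPKM, from 2, 4 and 12 reads. Interferon from outside the sampled RNA, or made earlier, is not measured by these values.

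The receptor and its kinases differed little. IFNAR1 stood at 4.19 RPKM in S264A, 3.41 in wild-type THG-1 and 4.15 in empty vector, and IFNAR2 at 1.51, 1.28 and 1.39 RPKM. JAK1 stood at 7.79, 6.97 and 7.34 RPKM and TYK2 at 6.45, 7.39 and 5.68 RPKM. None of the 12 receptor and proximal genes compared was called in any comparison, and their median was 0.02 for wild type against empty vector. Of 12 negative regulators compared, SOCS1, a feedback inhibitor of JAK kinases, was the 1 called in wild type against empty vector. It stood at 0.640, 1.67 and 0.255 RPKM from 11, 26 and 10 reads. Of 15 adaptors and kinases of nucleic acid sensing compared, TICAM1 (12.4, 21.1 and 8.23 RPKM), the adaptor of TLR3, and IKBKE (5.50, 11.1 and 4.56 RPKM), a kinase that phosphorylates IRF3, were called higher in wild type than in empty vector. Against 4.53% higher and 1.54% lower of all genes in that comparison, these lists are too short for their shares to be read closely.

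A list of 56 other interferon-stimulated genes had a smaller median difference. Of 51 compared between wild-type THG-1 and empty vector, 5 were called higher and 1 lower (4.53% and 1.54% of all genes), with a median of 0.32, 40 above 0 and 11 below. GBP4, a guanylate-binding protein, stood at 0.954 RPKM in S264A, 2.10 in wild-type THG-1 and 0.290 in empty vector, and TRIM22, an antiviral ubiquitin ligase, at 1.50, 2.95 and 0.798 RPKM. DDX60, a helicase that aids RIG-I, was the 1 lower gene, at 25.1, 6.22 and 16.6 RPKM. The wild-type level of DDX60 was 0.375 of the empty vector (0.342 to 0.411), and the S264A level was 4.03 times the wild type (3.66 to 4.43), the same order as HERC5. Between S264A and wild type, 51 genes of this list were compared, 1 (DDX60) was higher and 0 lower, against 1.55% and 2.23% of all genes, and the median was -0.44. Between S264A and empty vector the median of 46 genes was -0.06, with 0 higher and 1 lower, against 2.99% and 0.824% of all genes. Over all 120 other pathway genes, of which 91 were compared between wild type and empty vector, 8 were higher and 1 lower, and the median was 0.25. A single call in lists of this size lies near the background share.

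**Figure D5:**
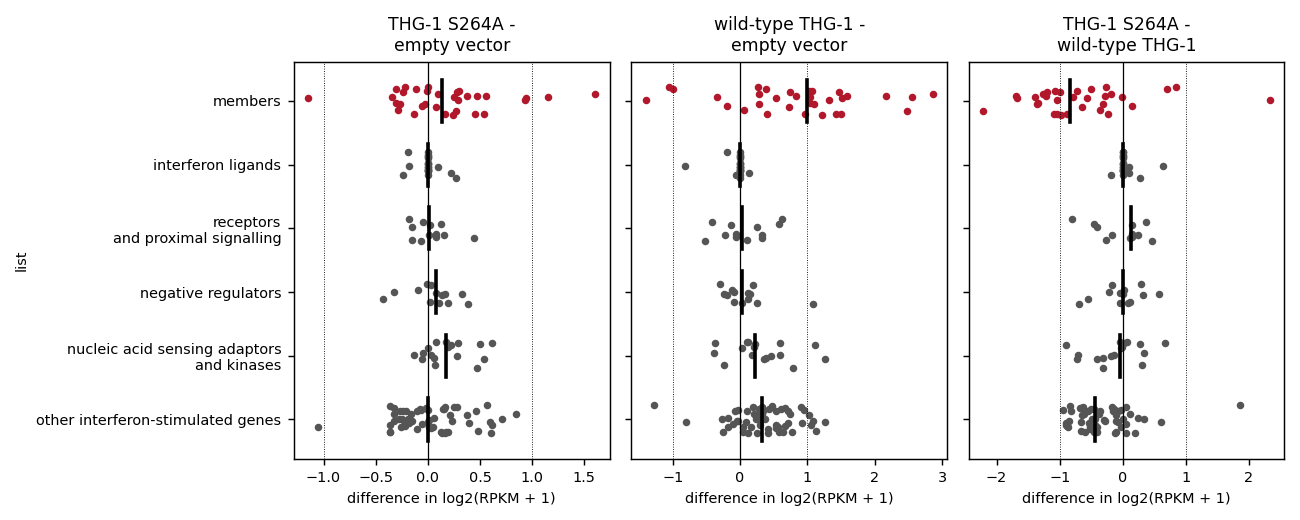
Difference in log2(RPKM + 1) of every gene in the table for the 32 interferon-stimulated genes and the 5 other lists of the interferon pathway, in the 3 comparisons, with 1 point per gene and a black bar at the median. For wild-type THG-1 minus empty vector the 32 genes have the highest bar (0.99), and HERC5 and IFI44 are the points of this list below -1.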

How the data were processed

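RNA from 3 HaCaT lines, 1 library each, was sequenced on an Illumina instrument, per the labels' protocols. The deposited table gives RPKM per gene, computed by the authors library by library, and a second set of columns that, tested on the values, are the same RPKM quantile-normalised by the authors over the 3 libraries. The submitters' processing notes name genome build hg19. For the aligner, counting program, annotation, library selection and strandedness, no statement is given in the sources used here.

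RPKM columns were used as deposited. For 234 of 55773 symbols that appear more than once, the row of highest mean RPKM stood for the symbol. Differences were log2((RPKM a + 1)/(RPKM b + 1)), with a pseudocount of 1 RPKM, which understates the change of low genes. The background holds genes that reached 1 RPKM in either library of a pair, and a fold of at least 2 was counted. With 1 library per group no test was run.

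Library depths were inferred from the commonest step of the RPKM values of single-exon genes, with GENCODE 29 lengths. At these depths RPKM steps gave whole reads within 0.001 reads. GENCODE 29 exon lengths were used where they fitted (18 of the 32 genes), otherwise the smallest fitting length of at least 0.5 times the annotated one (14 genes), which can understate reads. Ratios have exact Clopper-Pearson 95% intervals. Reads are not independent molecules, so intervals cover counting error only. The computation was tested on simulated data. Exon overlaps were taken from the same annotation, which belongs to another build than the files. Promoter windows and neighbouring genes came from RefSeq (GRCh38.p14).

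All 32 genes are named, with, from 5 other lists of the pathway, a fixed set of genes and those of largest difference among genes called between wild type and empty vector (at most 2 in each direction a list). Genes named for their position are said to be so. A result on 1 gene of that set is not reported here. The genes and lists were chosen with earlier results of these data known, and no list is independent evidence. Alternatives tried were pseudocounts of 0.1 and 5, the quantile-normalised columns, scaling to equal sums or upper quartiles, and a minimum of 5 RPKM or none. Summing the rows of a symbol was also tried. Python 3.11, pandas 2.3.3, numpy 2.4.6, scipy 1.17.1 and matplotlib 3.10.9 were used.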

Additional observations from a re-analysis of the deposited data

Results flagged for a closer look

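For 4 genes the S264A and wild-type lines lay on opposite sides of the empty-vector line, with counting intervals off 1 in both and at least 1 of them called. Leaving the interval aside, 64 of the 11624 genes compared in both (0.551%) lay on opposite sides with a call, and so did IFIT3, HERC5, IFITM1 and RSAD2 of the 27 interferon-stimulated genes compared in both. IFIT3 was not flagged, as its interval of S264A against empty vector held 1. The flagged CMPK2 was below 1 RPKM in both S264A and empty vector, so that it is not among the 27 and this background does not cover it. HERC5 stood at 6.37 RPKM in S264A, 0.461 in wild-type THG-1 and 2.86 in empty vector, a log2 difference of 2.34 between S264A and wild type. RSAD2 stood at 0.546, 3.96 and 2.42 RPKM, a difference of -1.68. CMPK2, its neighbour, stood at 0.432, 2.67 and 0.720 RPKM, a difference of -1.36. IFITM1 stood at 38.6, 99.7 and 47.9 RPKM, a difference of -1.35. HERC5 was thus above the empty vector in S264A and below it in wild type, and the other 3 ran the opposite way. With 1 library per line these differences were not tested, and both comparisons share the empty-vector library. With a pseudocount of 5 the call against empty vector was lost for all 4, at -0.53 for HERC5, 0.99 for IFITM1 and 0.42 for CMPK2 in wild type and -0.42 for RSAD2 in S264A. That of IFITM1 was also lost in the quantile-normalised columns (0.84), under upper-quartile scaling (0.99) and under equal sums (0.89).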

How the results depend on the processing

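No value changed sign past the threshold under any alternative run. The log2 differences near 0 of ISG15 (wild type against empty vector), DDX58 (S264A against wild type, 0.09 under equal sums) and IFI44L (S264A against empty vector, 0.01 in the quantile-normalised columns) changed sign. Single genes were followed under the pseudocounts, the scalings, the quantile-normalised columns and summed rows of a symbol, but not under the changed minimum. Of their log2 differences, 479 moved by less than their counting interval and 97 by more. Summed rows left the numbers of the 32 genes called as they were, so that the 479 overstate how stable the values are. With a pseudocount of 0.1, 6 of the 32 genes were called between S264A and empty vector in place of 3. Of all genes, 941 were then called between S264A and empty vector, 1361 between wild type and empty vector and 1027 between S264A and wild type (458, 728 and 456 with 1). Of the other pathway genes 2, 16 and 13 were called in those comparisons (1, 9 and 1 with 1). With a pseudocount of 5, 0, 6 and 3 of the 32 genes were called in place of 3, 18 and 14, the medians were 0.56 between wild type and empty vector and -0.46 between S264A and wild type, all genes gave 94, 184 and 89, and other pathway genes gave 0 between S264A and empty vector and 0 between wild type and empty vector. The median between wild type and empty vector was 0.87 in the quantile-normalised columns and 0.88 under equal sums. With a minimum of 5 RPKM, 1 of the 32 genes was called between S264A and empty vector, all genes gave 204, 387 and 220, other pathway genes gave 0 between S264A and empty vector and 3 between wild type and empty vector, and the median between S264A and wild type was -0.79. A higher pseudocount damps every difference and low genes most by construction, and a higher minimum leaves fewer genes. The cause of the other shifts was not tested.

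Depth limits IFI44L, MX2, BST2, SOCS1, IFNE and IFNK, which rest on few reads. Variation between cultures was not measured. No paired analysis was possible because each group holds 1 library.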
